A study of Mus musculus with 8 samples.

Results

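The transcripts of the proteasome were followed in whole testes of C57BL/6J mice at 4 stages, day (d) 12, 16 and 24 after birth and adult, with 1 RNA-seq library per stage. The genes were taken by name, as all symbols made of Psm, a letter from a to g and a number. This gave 48 of the 23983 genes with an expression value, and the choice was made with earlier results of these data known. The labels name no treatment of these mice, and 4 H3K27Ac ChIP samples of the same stages were not analysed here. Values are FPKM, fragments per kilobase of transcript after a scaling between libraries, so that levels of different genes can be compared per length. With 1 library per stage no difference has a replicate check. Intervals in parentheses are at 95% and exact, except those of the ratio of Psme4 to a sum of genes, which are approximate. They cover the error of counting alone and say nothing of the spread between animals.

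The proteasome is the large protease that degrades proteins tagged with ubiquitin. Its 20S core is a barrel of 4 stacked rings, with alpha subunits in the outer rings and beta subunits, which hold the proteolytic sites, in the inner ones. A 19S cap, made of a base with ATPases and a lid, recognises and unfolds tagged substrates. Other activators can dock in place of the cap, namely the PA28 complexes (Psme1, Psme2 and Psme3) and PA200 (Psme4). In male germ cells, alpha subunit Psma8 can take the place of Psma7, and PA200 is known for its part in replacing histones during spermatid maturation.

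Most proteasome transcripts were abundant throughout. The median of the 48 genes was 45.6 FPKM at d12, then 51.3 at d16, 57.2 at d24 and 52.2 for the adult, against 6.66, 7.21, 9.73 and 10.3 FPKM for the 13901 genes of the table whose mean reached 1 FPKM. Psma4 was the highest at d12 and d16, at 280.9 and 266.9 FPKM, and Psmc3 at d24 and in adult testis, at 567.5 and 782.7 FPKM. At d12, 44 of the 48 were at or above 2 FPKM, a level that the methods of the study use to group genes by stage. The share of the 13901 genes at or above that level was not counted, though their d12 median, 6.66 FPKM, also lay above it. Psmg3 was first listed above it at d24, although its d12 interval (1.01 to 2.77) spans 2, and Psmb8, Psmb9 and Psmb11 were below it at every stage.

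**Figure D1:**
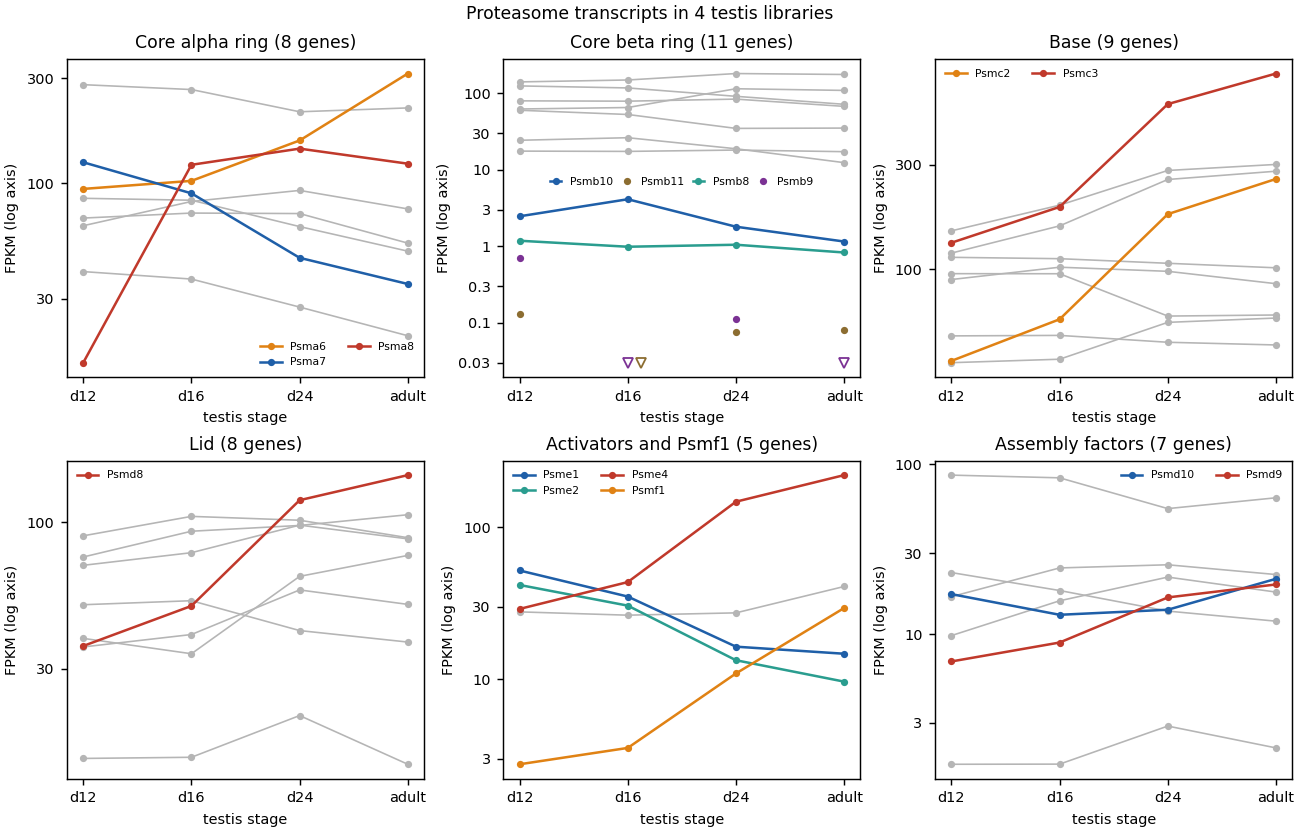
FPKM on log axes of the 48 proteasome genes at d12, d16, d24 and adult, in 6 panels by role, with 1 library per stage. Lines join the values of a gene, grey lines are genes not named in the panel, and open triangles mark stages at which Psmb9 or Psmb11 was listed at 0. Psma8 starts lowest of the alpha genes and crosses Psma7 by d16, while Psmc3, Psmc2, Psmd8, Psme4 and Psmf1 climb between d16 and d24.

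Changes between stages are given as log2 ratios after adding 0.1 FPKM, and a gene counts as changed when it moved 2-fold or more. Of the 48 genes, 46 had a mean of at least 1 FPKM and were counted, and Psmb9 and Psmb11 did not. From d12 to d16, 1 of the 46 was higher, Psma8, and 0 were lower, while 12.6% of all genes counted were higher and 3.67% lower. From d16 to d24, 5 were higher (Psmc2, Psmc3, Psmd8, Psme4 and Psmf1) and 3 were lower (Psmb10, Psme1 and Psme2), against 27.5% and 8.45% of all genes. From d24 to adult, 2 were higher (Psma6 and Psmf1) and 0 lower, against 11.4% and 2.20%. Over the whole course from d12 to adult, 10 of 46 (21.7%) were higher and 4 (8.70%) lower, against 35.7% and 23.1% of all genes. The median log2 change of the 46 from d12 to adult was 0.12, beside 0.20 for all genes. With the deposited values, the shares of proteasome genes past 2-fold lay below those of all genes in both directions at each step, though from d16 to d24 the lower share, 6.52%, was near that of all genes. In whole testis, fewer cells of a type and less RNA per cell cannot be told apart.

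These counts rest on the scaling of the libraries. The summed FPKM of a library was 283580 at d12, then 307964 at d16, 472726 at d24 and 659202 for the adult. When every library was given the same sum, 5 proteasome genes were higher from d12 to adult and 23 lower, against 23.2% and 49.8% of all genes, and the median of all genes moved to -0.995 and that of the 46 to -1.10. Under each of 4 scalings, 5 genes were higher by 2-fold or more from d12 to adult (Psma8, Psmc2, Psmc3, Psme4 and Psmf1) and 4 were lower (Psma7, Psmb10, Psme1 and Psme2). These scalings were the deposited values, equal sums, upper quartile and median ratio. Median ratio scaling called the same 10 and 4 genes as the deposited values, so it adds little. The share of all genes past 2-fold under all 4 was not counted, but 23.2% were higher with equal sums and 22.9% lower with median ratio scaling. The counts by role below use the deposited values, and of the 23 genes lower with equal sums 10 are constitutive core genes (Psma1, Psma2, Psma4, Psma5, Psma7 and Psmb1 to Psmb5). Ratios between genes within a library, given below for the alternative subunits, do not depend on the scaling. For 7 of the 48 genes (Psma4, Psma5, Psmb3, Psmb5, Psmd2, Psmd11 and Psme2) the genome holds a near copy of the transcript (95% or more of bases alike along 80% or more of it), so their levels are less certain than the others.

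**Figure D2:**
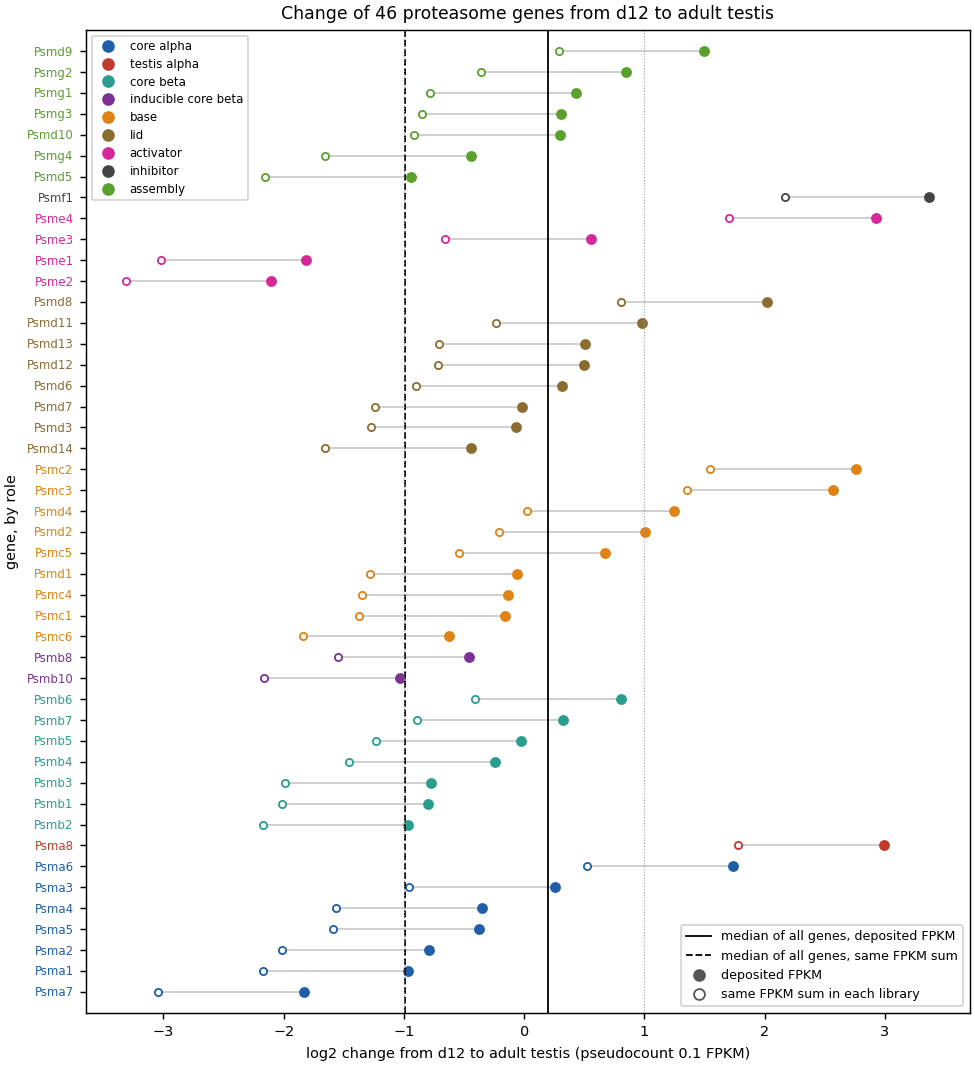
The log2 change from d12 to adult testis (horizontal axis, pseudocount 0.1 FPKM) for the 46 proteasome genes counted, grouped and coloured by role. Filled points use the deposited FPKM and open points equal FPKM sums in all libraries, vertical lines mark the median of all genes under each (0.20 and -0.995), and dotted lines a 2-fold change. Psmf1, Psma8, Psme4, Psmc2 and Psmc3 lie beyond 2-fold to the right with both point types, and Psme2, Psma7, Psme1 and Psmb10 to the left.

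Psma8 is the germ cell alternative to Psma7 at the same place of the alpha ring. Psma8 was at 15.4 FPKM (13.7 to 17.2) at d12, then 121.6 at d16, 144.0 at d24 and 123.0 (117.3 to 128.9) for the adult. It stood far apart at d12 and lay within a narrow range at the later stages, and its rise of 7.91-fold (7.01 to 8.94) lay between d12 and d16. Psma7 was at 124.8 FPKM (118.6 to 131.4) at d12, then 90.2 at d16, 45.99 at d24 and 35.0 (31.1 to 39.2) for the adult, lower at each stage than at the one before. It was 3.57-fold lower (3.15 to 4.05) in adult testis than at d12. Their intervals do not overlap at any stage. Psma8 is encoded on chromosome 18 (14706135 to 14762301, plus strand, GRCm38) and Psma7 on chromosome 2 (180036367 to 180042464, minus strand).

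Within a library, the ratio of Psma8 to Psma7 was 0.123 (0.109 to 0.139) at d12, then 1.35 (1.25 to 1.45) at d16, 3.13 (2.92 to 3.36) at d24 and 3.52 (3.11 to 3.99) for the adult. Psma8 thus went from 10.97% of the summed level of both genes at d12 to 57.4%, 75.8% and 77.9%. Ordered by level, it was in place 8 of the 8 alpha genes at d12, in place 2 at d16 and in place 3 afterwards, while Psma7 went from place 2 to 4, 7 and 7. The summed level of the pair was 140.2 FPKM at d12, then 211.8 at d16, 190.0 at d24 and 158.0 for the adult. Set against the median of Psma1 to Psma6, this sum was 1.80 at d12, then 2.54 at d16, 2.29 at d24 and 2.42 for the adult. Their transcripts share no stretch of 50 identical bases, so a read of 50 bases from one could not match the other in full.

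**Figure D3:**
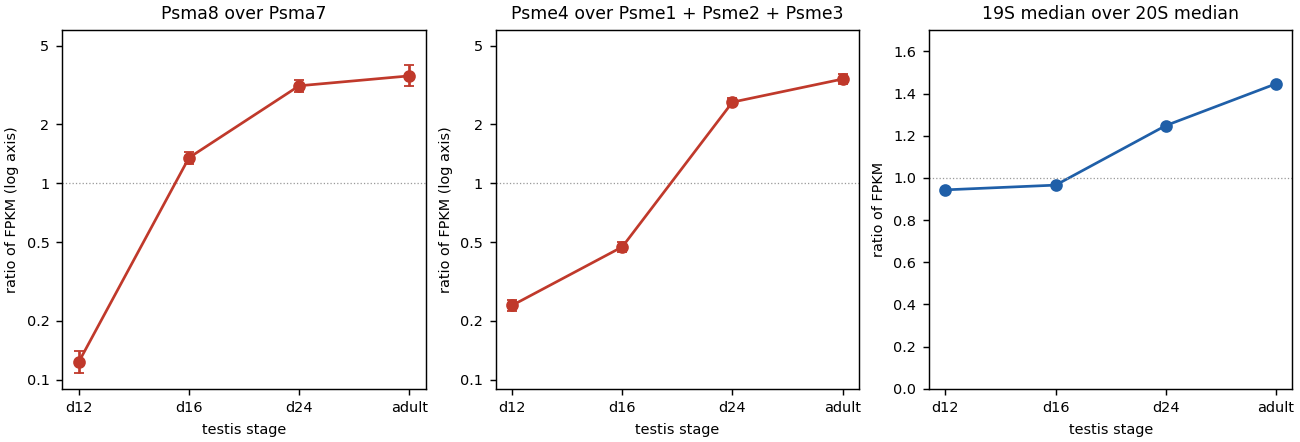
Ratios of FPKM within each library at d12, d16, d24 and adult, with 95% intervals of counting error as bars in the left and middle panels, which have log axes. The bars of the middle panel are approximate. Psma8 over Psma7 passes 1 between d12 and d16 (0.123 to 1.35), Psme4 over the sum of Psme1, Psme2 and Psme3 passes 1 between d16 and d24 (0.474 to 2.59), and the median of the 17 19S genes over that of the 14 constitutive 20S genes goes from 0.943 to 1.45.

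The other alpha genes were less variable with stage, except Psma6. Psma6 was at 94.5 FPKM at d12, then 102.8 at d16, 156.8 at d24 and 315.5 for the adult, 3.34-fold higher (3.11 to 3.59) in adult testis than at d12, with the step past 2-fold only from d24 to adult (2.01-fold, 1.91 to 2.12). The interval of that step includes 2, and with equal FPKM sums Psma6 was not past 2-fold over the course. Psma4, the highest alpha gene by mean level, was at 280.9, 266.9, 211.6 and 220.3 FPKM in stage order. Psma1, the lowest by mean level of the constitutive ones, was at 39.8, 36.8, 27.5 and 20.4 FPKM. Psma2, Psma3 and Psma5 ranged from 49.3 to 93.0 FPKM and none was past 2-fold at any step with the deposited values. The intact ring holds each alpha subunit in equal number, yet the highest and lowest of the 7 constitutive transcripts differed 7.05-fold at d12 and 15.5-fold in adult testis.

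Of the 7 constitutive beta genes, 0 were past 2-fold at any step or over the course with the deposited values. With equal FPKM sums Psmb1 to Psmb5 were past 2-fold lower from d12 to adult. Psmb7, which carries the trypsin-like site, was the highest at 139.7 FPKM at d12, then 147.9 at d16, 179.6 at d24 and 174.6 for the adult. Psmb6, which carries the caspase-like site, had the largest log2 change in the upward direction, 0.81 from d12 to adult, with 61.8, 64.6, 113.7 and 108.1 FPKM in stage order. Psmb5, which carries the chymotrypsin-like site, was the lowest by mean level and, with the deposited values, the flattest, at 17.4, 17.3, 18.0 and 17.1 FPKM. Its level is less certain, since the genome holds a near copy at 98.97% identity over its whole transcript. The 3 catalytic genes thus ended at levels that differed by more than at d12. Psmb2, a beta subunit without a proteolytic site, had the largest downward change, -0.97, from 24.1 and 26.1 FPKM at d12 and d16 to 18.7 at d24 and 12.3 in adult testis. Psmb1, Psmb3 and Psmb4 were at 123.8, 59.5 and 79.0 FPKM at d12 and at 71.2, 34.8 and 66.9 in adult testis. The SD of log2 FPKM over the 14 constitutive core genes was 1.03 at d12, then 1.01 at d16, 1.15 at d24 and 1.38 for the adult.

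The inducible beta genes were near the bottom of the range. Psmb8, Psmb9 and Psmb10 replace Psmb5, Psmb6 and Psmb7 in the immunoproteasome, which is known from immune cells and from interferon responses, and Psmb11 belongs to the proteasome of the thymic cortex. Psmb8 was at 1.18 FPKM (0.697 to 1.86) at d12, then 0.981 at d16, 1.04 at d24 and 0.825 (0.378 to 1.57) for the adult, with overlapping intervals. Its ratio to Psmb5 was 0.0675, 0.0568, 0.0580 and 0.0482 in stage order, all with overlapping intervals from 0.0216 to 0.110. Psmb10 was at 2.45 FPKM (1.74 to 3.35) at d12, then 4.09 (3.16 to 5.22) at d16, 1.79 (1.33 to 2.36) at d24 and 1.15 (0.612 to 1.96) for the adult. It was highest at d16 and then 2.28-fold lower at d24, with an interval of 1.55 to 3.37 that includes 2. From d12 to adult it was 2.14-fold lower (1.12 to 4.36). Psmb10 over Psmb7 was 0.0176 (0.0124 to 0.0241) at d12 and 0.00657 (0.00349 to 0.0113) in adult testis.

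Psmb9 rested on 7, 0, 2 and 0 fragments in stage order, with 0.693 FPKM at d12. The limit that a count of 0 allows, 3 fragments, corresponds to 0.298 FPKM at d16 and 0.418 FPKM in adult testis. Psmb11 rested on 7, 0, 7 and 3 fragments and reached 0.132 FPKM at most. At these counts no order of the stages was read for either gene. The list of 8 macrophage and leukocyte symbols holds Adgre1 and Emr1, names of the same gene, and 7 were in the table. The summed level of these 7, of which 0 were at 0 in any library, was 29.3 FPKM at d12, then 37.0 at d16, 30.1 at d24 and 32.1 for the adult. Its part in the inducible subunits was not tested.

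The base holds the ring of ATPases that unfolds substrates. With the deposited values, 2 of the 6 ATPase genes rose while the other 4 stayed within 2-fold. With equal FPKM sums Psmc1, Psmc4 and Psmc6 were past 2-fold lower from d12 to adult, as was Psmc6 with upper quartile scaling. Psmc3 was at 131.9 FPKM at d12, then 192.3 at d16, 567.5 at d24 and 782.7 (768.4 to 797.2) for the adult, a 5.93-fold (5.69 to 6.19) difference over the course. Psmc2 was at 38.0, 58.9, 178.2 and 258.1 FPKM in stage order, 6.78-fold (6.25 to 7.37) higher in adult testis than at d12. Both had their largest step from d16 to d24, at 2.95-fold for Psmc3 and 3.02-fold for Psmc2. Psmc6 was at 95.3, 95.2, 61.0 and 61.7 FPKM, the largest downward change of the base. Psmc4, the lowest of the base by mean level, was flat with the deposited values, at 49.5, 49.7, 46.3 and 45.0 FPKM. Psmc1 went from 113.1 to 101.3 FPKM and Psmc5 from 37.3 to 59.7 FPKM between d12 and adult. The 6 ATPases form 1 ring with a single copy of each, and the highest of their transcripts exceeded the lowest 3.53-fold at d12 and 17.4-fold in adult testis.

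Among the base genes that are not ATPases, Psmd4, a receptor for ubiquitin chains, was at 118.3 FPKM at d12, then 157.5 at d16, 256.7 at d24 and 280.0 for the adult, 2.37-fold higher (2.24 to 2.50) over the course. Psmd2, a large scaffold subunit, was at 149.5, 195.9, 282.3 and 300.7 FPKM and 2.01-fold higher (1.94 to 2.08), at the edge of the threshold. With equal FPKM sums its log2 change was -0.21. Neither Psmd4 nor Psmd2 was past 2-fold over the course with equal sums or with upper quartile scaling. Psmd1, the other large scaffold subunit, was at 89.6, 102.0, 97.6 and 85.7 FPKM.

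Of the 8 lid genes, Psmd8 alone was past 2-fold at any step or over the course with the deposited values. With equal FPKM sums Psmd8 was not past 2-fold from d12 to adult. Psmd3, Psmd7 and Psmd14 were then past 2-fold lower, as were 49.8% of all genes. With upper quartile scaling Psmd8 was past 2-fold higher and Psmd14 past 2-fold lower. Psmd8 was at 36.2 FPKM at d12, then 50.2 at d16, 119.7 at d24 and 147.1 for the adult, 4.07-fold (3.72 to 4.44) higher over the course, with 2.38-fold (2.22 to 2.56) from d16 to d24. Psmd11, another lid subunit, came next at 38.5, 33.9, 64.0 and 76.0 FPKM, with a log2 change of 0.98 that lay just inside the threshold. Psmd14, the enzyme that removes ubiquitin chains from substrates, had the largest downward change of the lid, at 50.7, 52.4, 41.0 and 37.3 FPKM. Psmd7, its partner subunit and the highest of the lid by mean level, was at 89.3, 104.8, 101.5 and 88.0 FPKM. Psmd3 was the lowest, at 14.4, 14.5, 20.4 and 13.7 FPKM. Psmd6, Psmd12 and Psmd13 had log2 changes of 0.31 to 0.50 from d12 to adult.

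The typical levels of core and cap genes moved apart over the course. The median of the 14 constitutive core genes was 74.3 FPKM at d12, then 80.5 at d16, 78.2 at d24 and 60.3 for the adult, and that of the 17 base and lid genes was 70.1, 77.8, 97.5 and 87.1 FPKM. The ratio of the cap median to the core median was 0.943, 0.966, 1.25 and 1.45 in stage order. From d12 to adult 10 of the 14 core genes had a downward log2 change, and 10 of the 17 cap genes an upward one. The median change of all genes was 0.20, and 4 of the 14 core genes and 10 of the 17 cap genes lay above it. With equal FPKM sums 13 of the 14 were downward and 4 of the 17 upward (Psmc2, Psmc3, Psmd4 and Psmd8), and with upper quartile scaling 12 and 7. The median change of all genes was -0.995 with equal sums and -0.45 with upper quartile scaling.

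The activators showed the widest contrast. Psme4 encodes PA200, a single large protein that opens the core without ATP. It was at 29.0 FPKM (27.8 to 30.2) at d12, then 43.5 at d16, 147.3 at d24 and 220.3 (216.5 to 224.2) for the adult, higher at each stage than at the one before. The difference was 7.60-fold (7.27 to 7.95) over the course and 3.38-fold (3.26 to 3.51) from d16 to d24. By level among all 48 genes, Psme4 was in place 32 at d12, then 27 at d16, 8 at d24 and 6 for the adult.

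Psme1 and Psme2 encode the alpha and beta subunits of the PA28 ring, which is known to rise with interferon. Psme1 was at 51.9 FPKM at d12, then 35.0 at d16, 16.4 at d24 and 14.7 for the adult, 3.53-fold (2.92 to 4.30) lower over the course. Psme2 was at 41.7, 30.5, 13.3 and 9.63 FPKM, 4.33-fold (3.36 to 5.71) lower. Both were lower at each stage than at the one before and both passed 2-fold from d16 to d24. Their d24 and adult intervals overlap, at 14.7 to 18.2 and 12.3 to 17.5 for Psme1. For Psme2 they are 11.7 to 15.1 and 7.44 to 12.1. Psme2 has a near copy, Psme2b, at 99.4% identity over 88.6% of its transcript, and 58.5% of its stretches of 50 bases occur in that gene too, so the split of reads between them is uncertain. Psme2b was at 53.6, 27.8, 16.1 and 15.9 FPKM, and its ratio to Psme2 lay between 0.912 and 1.66. Psme3, which forms the nuclear PA28 ring, was at 27.7, 26.4, 27.3 and 40.7 FPKM and not past 2-fold.

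The ratio of Psme4 to the sum of Psme1, Psme2 and Psme3 was 0.239 (0.225 to 0.254) at d12, then 0.474 (0.447 to 0.503) at d16, 2.59 (2.47 to 2.70) at d24 and 3.39 (3.19 to 3.60) for the adult. The intervals of the 4 stages do not overlap. They pool the fragments of Psme1, Psme2 and Psme3 without regard to transcript length, so they are approximate and may be too narrow. With Psme2b added to the sum, a choice made after the values were seen, the ratio was 0.166, 0.364, 2.02 and 2.72. Against Psme3 alone it was 1.05, 1.65, 5.39 and 5.41. The larger part of the change came from d16 to d24, one stage later than the crossing of Psma8 and Psma7.

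The 250 bases before the annotated start of Psme4, and of Psme1 and Psme2, are shown because these activator genes moved in opposite directions. They are read 5′ to 3′ on the strand of the gene and taken from RefSeq (GRCm38.p6), at chr11:30771525-30771774 (plus strand) for Psme4, chr14:55578244-55578493 (plus) for Psme1 and chr14:55591102-55591351 (minus) for Psme2. No annotated exon overlaps them. Capitals mark a match to AACTGNC, a motif of Myb factors.
Psme4: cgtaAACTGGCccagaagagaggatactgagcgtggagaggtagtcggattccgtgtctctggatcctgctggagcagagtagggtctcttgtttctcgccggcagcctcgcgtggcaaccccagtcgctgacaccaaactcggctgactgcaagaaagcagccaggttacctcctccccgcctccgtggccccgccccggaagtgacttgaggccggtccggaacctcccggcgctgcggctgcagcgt
Psme1: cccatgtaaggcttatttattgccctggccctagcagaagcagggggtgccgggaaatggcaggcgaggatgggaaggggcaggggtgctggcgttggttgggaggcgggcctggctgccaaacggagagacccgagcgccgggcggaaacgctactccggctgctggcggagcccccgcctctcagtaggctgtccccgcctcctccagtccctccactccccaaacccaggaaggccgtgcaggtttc
Psme2: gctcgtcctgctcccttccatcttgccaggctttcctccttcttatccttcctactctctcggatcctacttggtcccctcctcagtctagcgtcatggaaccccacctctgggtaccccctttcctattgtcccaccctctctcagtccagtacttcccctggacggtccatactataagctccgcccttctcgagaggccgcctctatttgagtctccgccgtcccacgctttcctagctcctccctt

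Psme1 and Psme2 lie near each other on chromosome 14 (55578494 to 55581527 and 55587440 to 55591101) and their windows hold none of the 4 motifs searched on both strands. Of the 48 proteasome genes, 40 had such a window and the other 8 are not described here. AACTGNC was found in 5 of the 40 (12.5%; Psma5, Psmb5, Psmb10, Psmb11 and Psme4), against 12.1% of 27025 genes. TGACNNNGC, the core of the antioxidant response element bound by factors such as Nfe2l1 that are known to drive proteasome genes, was also found in 5 (12.5%; Psmb5, Psmb6, Psmc6, Psmd9 and Psmd12), against 11.5% of genes. CCAAT was in 14 (35.0%), against 37.5%, and TGACGTCA, the cAMP response element, in 0, against 1.77%. Overlaps between motifs were not removed. These shares are a description of the letters in the windows and say nothing of binding.

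Psmf1 (PI31), a protein that binds the core and was first described as an inhibitor, was among the lowest at d12 and had the largest fold of all 46 over the course. It was at 2.75 FPKM (2.26 to 3.29) at d12, then 3.52 (2.97 to 4.13) at d16, 10.9 (10.2 to 11.7) at d24 and 29.4 (27.5 to 31.4) for the adult. The difference over the course was 10.7-fold (8.81 to 13.2). With the deposited values it passed 2-fold at 2 steps in a row, 3.09-fold from d16 to d24 and 2.70-fold from d24 to adult. With equal FPKM sums neither of these steps was past 2-fold.

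Of the 7 assembly factors, Psmd9 was past 2-fold over the course with the deposited values. Psmd9, a chaperone of the base, was at 6.90 FPKM at d12, then 8.92 at d16, 16.4 at d24 and 19.6 for the adult, 2.84-fold (2.42 to 3.35) higher over the course. Psmd5, another base chaperone, was at 23.0, 18.1, 13.7 and 11.9 FPKM, the largest downward change of this group at 1.93-fold (1.64 to 2.29). With equal FPKM sums and with upper quartile scaling, Psmd5 and Psmg4 were past 2-fold lower and Psmd9 was not past 2-fold. Psmd10, likewise a base chaperone and the only X-linked gene of the 48, was at 17.2 FPKM (15.3 to 19.2) at d12, then 13.0 (11.4 to 14.8) at d16, 13.9 (12.6 to 15.3) at d24 and 21.2 (18.7 to 23.9) for the adult. It stayed within 2-fold, with its lowest values at d16 and d24. Of the chaperones that build the alpha ring, Psmg4 was the highest, at 86.3, 83.2, 54.8 and 63.5 FPKM, and Psmg3 the lowest, at 1.71, 1.72, 2.88 and 2.14 FPKM. Psmg1 and Psmg2 were at 16.6 and 9.80 FPKM at d12 and at 22.4 and 17.7 FPKM in adult testis, which was 1.80-fold (1.43 to 2.28) higher for Psmg2.

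A list of partners outside the naming rule was read beside them: cap subunits with other names, substrate shuttles, ubiquitin genes, E1 enzymes and regulators of proteasome genes. Its 40 symbols include older and newer names of the same genes, such as Shfm1 and Sem1, and 35 were in the table. From d12 to adult 12 of these (34.3%) were higher and 7 (20%) lower, near the 35.7% and 23.1% of all genes. Their median log2 change was 0.59. From d16 to d24, 9 (25.7%) were higher, near the 27.5% of all genes, and 0 lower, against 8.45%. Ddi1, a shuttle of tagged substrates, was at 0.578, 0.158, 49.5 and 148.4 FPKM in stage order. Ubb, a polyubiquitin gene, was at 520.8, 829.9, 1664 and 2484 FPKM. Nfe2l1 and Nfe2l2, transcription factors of proteasome genes, were 2.07-fold and 2.87-fold lower in adult testis. Adrm1 and Pomp, a ubiquitin receptor of the cap and the maturation factor of the core, stayed within 2-fold.

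The cell types of the testis changed across the same stages. Summed FPKM of 6 early spermatocyte markers was 609.7 at d12, then 1224 at d16, 835.6 at d24 and 785.2 for the adult. Sycp3 and Hormad1 carried this sum, at 795.3 and 343.6 FPKM at d16. Dmc1 and Prdm9 were highest at d12 and past 2-fold lower in adult testis, and Spo11 was highest in adult testis. The sum of 6 pachytene spermatocyte markers was 66.1, 863.6, 3666 and 4400, with 6 of 6 past 2-fold from d12 to d16. That of 6 round spermatid markers was 3.54, 14.8, 471.4 and 1105, with Acrv1 and Catsper3 listed at 0 at d16, and 6 elongating spermatid markers gave 13.1, 4.33, 2325 and 26087, with Gapdhs listed at 0 at d16. In the other direction, 6 spermatogonial markers went from 289.0 at d12 to 62.1 in adult testis and 6 Sertoli cell markers from 867.1 to 502.9, with Amh listed at 0 in adult testis. Gfra1 went against the other 5 spermatogonial markers, from 1.20 to 2.41 FPKM. Clu carried the Sertoli sum (706.7 and 456.6 FPKM), and the other 5 Sertoli markers were past 2-fold lower. Of the 6 elongating spermatid markers, 5 were past 2-fold lower from d12 to d16. Prm2 was at 4.57 FPKM at d12, which the study places at the meiotic stage, and the source of this signal was not tested. Sums of 6 markers each went from 131.6 to 580.7 for Leydig cells, from 20.7 to 9.36 for endothelium and from 257.5 to 307.6 for peritubular myoid cells. The myoid sum was carried by Actg2 (9.47 to 225.0 FPKM), while 4 of the 6 myoid markers were past 2-fold lower and their median log2 change was -1.26. The part of these markers in the changes of the proteasome genes was not tested.

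**Figure D4:**
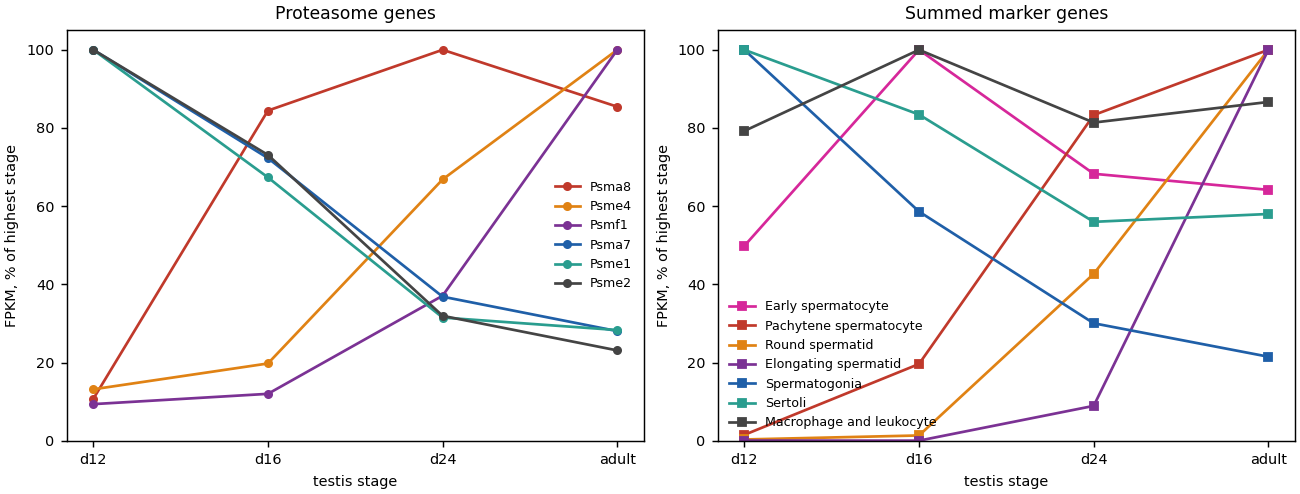
FPKM as a percentage of the highest of the 4 stages, for 6 proteasome genes (left, circles) and the summed markers of 7 testis cell types (right, squares), at the 4 stages. Psma8 is near its top by d16, Psme4 and Psmf1 are highest in adult testis, and Psma7, Psme1 and Psme2 are lower at each later stage. The d24 and adult counting intervals of Psme1 and Psme2 overlap. Marker sums of pachytene and haploid germ cells are highest in adult testis, that of early spermatocytes at d16, and those of spermatogonia and Sertoli cells at d12. Sycp3 and Hormad1 carry the early spermatocyte sum, and Clu the Sertoli sum.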

How the data were processed

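Testes of C57BL/6J mice at d12, d16, d24 and adult gave 1 RNA-seq library each, assigned by its labels. The authors deposited FPKM per gene, computed with Cuffdiff of Cufflinks 2.2.1 (multi-read and bias correction, no effective length correction) after mapping with TopHat2 2.1.0 and Bowtie 1.1.2 to GRCm38/mm10 with RefSeq genes and 1 alignment per pair. The scaling between libraries is not given in the sources used here.

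The value of 1 fragment was recovered in each library from 14603 genes with 1 curated RefSeq transcript, as the step of which low FPKM are multiples: for 1 kb it was 0.0799 FPKM at d12, then 0.0800 at d16, 0.0455 at d24 and 0.112 for the adult. Values up to 20 fragments lay within 0.05 of a whole number in 91.5% to 92.4% of cases. Implied fragments on genes were 8907024, 9454487, 23673797 and 12044795. For the 14 proteasome genes with several transcripts the shortest length was used, which gives the fewest fragments and the widest interval. Exact Poisson intervals were used for levels and Clopper-Pearson intervals for ratios. For the ratio of Psme4 to a sum of genes, the fragments of the summed genes were pooled, which makes the interval approximate.

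Genes named with all values were the alternative subunits and activators, the members with the largest rise and fall and the highest and lowest mean in each role, those past 2-fold at any step, and X-linked ones. All genes were read with a mean of at least 1 FPKM as background. Near copies (at least 95% identity over at least 80% of a transcript) were searched with blastn 2.17.0. Scripts ran under python 3.11.15, numpy 2.4.6, pandas 2.3.3, scipy 1.17.1 and matplotlib 3.10.9, and the recovery of fragments, the counts of changes and the intervals were tested on simulated data. The members, lists and tests were chosen with earlier results of these data known. No p-values are given, since no stage has a second library.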

Additional observations from a re-analysis of the deposited data

How the results depend on the processing

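Alternatives to the scaling, filter, fold, pseudocount and denominators gave 1192 values, of which 1132 were planned and the others added after seeing the data. With equal FPKM sums, the median log2 change of the proteasome genes was -0.0605 from d12 to d16, -0.54 from d16 to d24, -0.58 from d24 to adult and -1.10 from d12 to adult, and 1 gene was higher and 11 lower from d16 to d24, 0 and 3 from d24 to adult, and 5 and 23 from d12 to adult. The 11 are 23.9% of the 46, against 30.2% of all genes, and 19.3% of all genes were higher at that step. From d24 to adult 6.60% of all genes were higher and 9.83% lower, and from d12 to adult 23.2% and 49.8%. Psmd2 then turned from higher to lower over the course, at -0.21. With upper quartile scaling the medians were -0.0751, -0.21, -0.34 and -0.54. Then 1 gene was higher from d24 to adult, against 8.71% of all genes, and 16 (34.8%) were lower from d12 to adult, against 37.9%. These settings shift all genes of a library together by construction. Without the filter on low values 2 genes were lower from d12 to d16 and 1 from d24 to adult, and the median from d12 to adult was -0.0234, against 0.25 with a mean of at least 5 FPKM and 0.30 without the 7 genes that have a near copy (added after seeing the data). At a fold of 1.5, 5 genes were higher from d12 to d16, 11 higher and 7 lower from d16 to d24, 2 lower from d24 to adult and 11 lower from d12 to adult. At a fold of 3, 3 were higher and 0 lower from d16 to d24 and 0 higher from d24 to adult. Shares of all genes were not counted without the filter or at folds of 1.5 and 3, so those counts have no background. Psma8 over the median of Psma1 to Psma6 was 0.198 at d12, then 1.46 at d16, 1.73 at d24 and 1.89 for the adult. Psme4 was 1.05, 1.65, 5.39 and 5.41 over Psme3, 0.390, 0.541, 1.88 and 3.66 over the median of the core, and 0.166, 0.364, 2.02 and 2.72 with Psme2b in the sum. Of the other values for single genes, groups and inducible subunits, 645 stayed within their counting interval (for medians, within 0.1 on the log2 scale), 418 did not. Among 736 values for single genes, 90 changed sign, 52 of them with equal FPKM sums and 37 with upper quartile scaling, and 1 of these, Psmd2, had been past 2-fold.

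No paired analysis was possible because each stage has 1 library, and the same holds for leaving out a library. Depth limits Psmb8, Psmb9, Psmb10, Psmb11 and Psmg3, which rest on 65 fragments or fewer in every library.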
